A study of Homo sapiens with 6 samples.

Results

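The genes that run the G1 phase of the cell cycle were read in MDA-MB-231 cells with and without knockdown of PUS1, an enzyme that converts uridine to pseudouridine in tRNA and other RNAs. Of the 60605 genes in the deposited table, 10 were chosen by name: the D cyclins CCND1 and CCND3, the E cyclins CCNE1 and CCNE2, the kinases CDK4 and CDK6, the CIP/KIP inhibitors CDKN1A (p21), CDKN1B (p27) and CDKN1C (p57), and the transcription factor MYC. All 10 had enough reads to enter the test, which covered 14748 genes.

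In G1, growth signals raise D cyclins, which pair with CDK4 or CDK6 and begin to phosphorylate the retinoblastoma protein. E cyclins then pair with CDK2 and complete that step, E2F factors are released, and genes of DNA synthesis are switched on. CIP/KIP proteins bind the cyclin and kinase pairs, block those with cyclin E and help assemble those with cyclin D. MYC, paired with MAX, binds E-box sequences, drives genes of growth and of G1 entry, and represses CDKN1A. Many breast cancers carry high cyclin D1, and CDK4 and CDK6 are drug targets in hormone receptor-positive disease.

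MDA-MB-231 is an established human triple-negative breast cancer cell line. Both groups carried a lentiviral pLKO.1 hairpin and had been selected with puromycin, the shControl group with a control hairpin and the shPUS1 group with a hairpin against PUS1, and each had 3 libraries labelled as biological replicates. Which PUS1 hairpin these cells carried and whether each replicate was a separate selection are not given in the sources used here, so the p-values measure the spread between these cultures. Poly(A) RNA was sequenced, and levels are given as FPKM (fragments scaled by exonic length and by library depth), which allows genes to be compared per length.

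PUS1 itself stood at 2.57, 4.66 and 2.18 FPKM in shControl replicates 1, 2 and 3 and at 1.13, 0.95 and 0.93 FPKM in the shPUS1 replicates. The groups did not overlap, and the log2 fold change was -1.64 (SE 0.32, edgeR adjusted p = 0.0462), or -1.20 (SE 0.16, adjusted p = 0.00311) without shControl replicate 2. PUS1 passed the threshold in 7 of 14 alternative fits, with a negative log2 fold change in all 14. Library totals ran from 14241505 to 19625998 estimated counts. The shControl replicate 2 library stood apart: 16.4% of tested genes lay more than 1 on the log2 scale from the mean of the other 2 controls, against 6.14% to 6.62% for those controls and 1.42% to 1.87% for the shPUS1 libraries. Fold changes and sums below are therefore given with and without it. The genes expected high in this line were VIM, CD44, KRT18, ANXA1 and CAV1. They summed to 655 to 711 FPKM in shPUS1 and 777 to 995 FPKM in shControl libraries. Of the genes expected low in triple-negative cells, ESR1 and PGR did not exceed 0.04 FPKM. ERBB2 was at 4.93 to 5.27 FPKM in shPUS1 and 5.37 to 6.91 FPKM in shControl libraries. GATA3 was at 1.55 to 2.16 FPKM over all libraries. Fibroblast markers summed to 4.44 to 5.36 FPKM in shPUS1 against 0.81 to 2.6 FPKM in shControl libraries, with LUM at 1.27 to 1.74 FPKM against 0.06 to 0.42 FPKM, COL1A1 at 3.14 to 3.53 FPKM against 0.73 to 2.35 FPKM, DCN at or below 0.03 FPKM and PDGFRA at or below 0.09 FPKM, while leukocyte (1.28 to 2.96 FPKM) and endothelial sums (0.22 to 1.02 FPKM) overlapped. The part of these differences in the results was not tested.

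Among the 10 genes, CCND3 was the 1 gene called with all 6 libraries (adjusted p under 0.05, edgeR quasi-likelihood test with Benjamini-Hochberg adjustment over all tested genes), and it was higher in shPUS1 cells. Over all tested genes 1.74% were called higher and 0.841% lower. At an unadjusted p under 0.05 edgeR had 3 of the 10, CCND3, CCNE2 and CDK4, where 25.5% of tested genes had such a p, and DESeq2 called the same 3, where it called 13.0%. The other members, CIP/KIP inhibitors included, were not called by edgeR with all libraries. By value alone, CCND1 and CDK4 were lower and the E cyclin pool held proportionally more CCNE1. The sizes of these uncalled differences changed without shControl replicate 2. By the looser measure of groups that do not overlap, CCND3 was higher and CCND1, CCNE2 and CDK4 were lower, which is 1 and 3 of 10 genes against a background of 18.8% and 17.3% of tested genes. Without shControl replicate 2 the test called CCND3 and CCNE1 higher and CCNE2, CDK4 and MYC lower, 5 of 10 genes, with 9.8% of tested genes called higher and 8.79% lower. In that subset the groups did not overlap for 7 of 10 genes, 2 higher and 5 lower, where 25.3% of tested genes were higher and 25.7% lower in the same way. In bulk RNA, fewer cells in a given phase and less RNA per cell cannot be told apart.

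**Figure D1:**
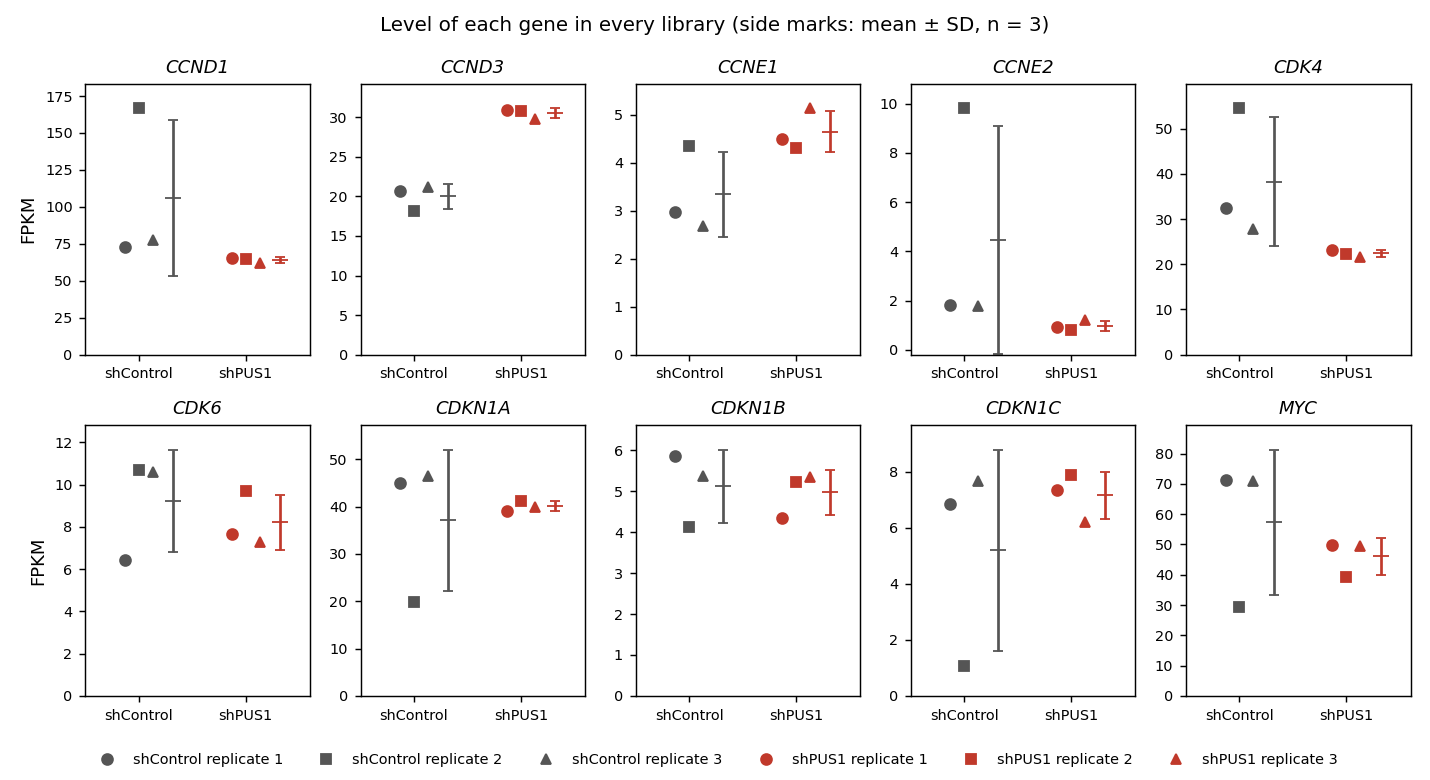
FPKM of each of the 10 genes (y axis, one scale per panel) in the 3 shControl (grey) and 3 shPUS1 (red) libraries, with symbols for replicate number and side bars for mean ± SD, n = 3. The 3 shPUS1 points of CCND3 all lie above the controls, those of CCND1, CCNE2 and CDK4 all lie below, and the square of shControl replicate 2 lies far from the other 2 controls for CCND1, CCNE2, CDKN1A, CDKN1C and MYC.

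CDK4, the kinase partner of the D cyclins, was, of the 6 members searched, the one whose promoter held the most E-boxes, the letters that MYC and MAX bind. The search was for the E-box CACGTG, which reads the same on both strands, from 250 bases before to 50 bases after each start in RefSeq (GRCh38.p14), where 6 of the 10 genes matched with 9 windows: CCND3, CCNE1, CDK4, CDK6, CDKN1A and CDKN1B. The CDK4 window held 3 E-boxes, 1 of the CDK6 windows held 1, and the other windows held none. Of 35116 promoters of this length 7.26% held at least 1 and 0.094% held at least 3. The E2F motifs TTTGGCGC, TTTCCCGC, TTTGCCGC and TTTCGCGC, searched on both strands, were in none of the 9 windows and in 3.31% of all promoters. These are matches of letters, not binding sites. The stretch of the CDK4 promoter with its 3 E-boxes in capitals, at chr12:57752396-57752536 on the minus strand and starting 216, 196 and 101 bases before the start, is shown as the member promoter with the most E-boxes:
CDK4 promoter: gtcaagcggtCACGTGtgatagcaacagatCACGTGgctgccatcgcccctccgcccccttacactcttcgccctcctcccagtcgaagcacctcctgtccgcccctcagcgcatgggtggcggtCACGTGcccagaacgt

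CDK4 (ENSG00000135446) is listed on chromosome 12 from 57747727 to 57756013, minus strand. The kinase stood at 32.5, 54.5 and 27.9 FPKM in shControl replicates 1, 2 and 3 and at 23.2, 22.3 and 21.7 FPKM in the shPUS1 replicates. Every shPUS1 library lay below every control, and shControl replicate 2 was 1.91 times the mean of the other 2 controls. The fit gave CDK4 a log2 fold change of -0.76 (SE 0.26, adjusted p = 0.125), which misses the threshold. Without that library the change was smaller, -0.39, with a smaller error (SE 0.10, adjusted p = 0.035). CDK4 was thus called by edgeR without that library and not with it.

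CDK6 (ENSG00000105810), the other kinase that D cyclins use, is listed on chromosome 7 from 92604921 to 92836573, minus strand. Its level was 6.45, 10.7 and 10.6 FPKM in the controls and 7.64, 9.68 and 7.30 FPKM in shPUS1 cells, so the groups overlapped. CDK6 had a log2 fold change of -0.15 (SE 0.22, adjusted p = 0.688), and -0.01 (SE 0.20, adjusted p = 0.976) without shControl replicate 2. Summed per library, CDK4 and CDK6 gave 38.9, 65.2 and 38.5 FPKM in shControl and 30.9, 32 and 29 FPKM in shPUS1 cells. The summed groups did not overlap, a log2 difference of -0.59 with an exact two-sided permutation p of 0.1 (0.5 after Benjamini-Hochberg adjustment over 5 sums and ratios). That is the smallest p that 3 against 3 libraries can give, and the difference was -0.34 without shControl replicate 2.

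CCND3 (ENSG00000112576) encodes cyclin D3 and is listed on chromosome 6 from 41934934 to 42050357, minus strand. It stood at 20.6, 18.2 and 21.2 FPKM in shControl replicates 1, 2 and 3 and at 30.9, 30.9 and 29.8 FPKM in the shPUS1 replicates. The groups were far apart relative to their spread: the shPUS1 mean was 30.5 ± 0.613 FPKM (SD, n = 3), 1.53 times that of the controls, whose SD was 1.62 FPKM. CCND3 rose by 0.64 on the log2 scale (SE 0.11, adjusted p = 0.0371). Of the 10 genes it was the one in which shControl replicate 2 lay nearest the other 2 controls, at 0.915 times their mean, and without that library the change was 0.59 (SE 0.09, adjusted p = 0.00441). Over 14 alternative fits its log2 fold change stayed between 0.59 and 0.65, with an adjusted p under 0.05 in 9 of them and up to 0.244 in the others.

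CCND1 (ENSG00000110092) encodes cyclin D1 and is listed on chromosome 11 from 69641156 to 69654474, plus strand. By the table's lengths it had the highest mean FPKM of the 10 genes in both groups. Its values were 73.1, 167 and 77.5 FPKM in the controls and 65.4, 64.8 and 61.7 FPKM in shPUS1 cells. All 3 shPUS1 libraries lay below all 3 controls, but shControl replicate 2 alone was 2.34 times the mean of the other 2. The log2 fold change of -0.72 (SE 0.32, adjusted p = 0.207) shrank to -0.19 (SE 0.08, adjusted p = 0.146) without it, and CCND1 passed the threshold in 0 of the 14 alternatives.

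The makeup of the D cyclin pool separated the groups, and its size did not. The separation by makeup follows from CCND3 being higher and CCND1 lower in every shPUS1 library. It is therefore no further result. CCND1 and CCND3 together gave 93.8, 185 and 98.7 FPKM in shControl and 96.3, 95.6 and 91.6 FPKM in shPUS1 libraries. The log2 difference was -0.34 with all libraries (exact permutation p = 0.3, adjusted 0.75) and -0.03 without shControl replicate 2. CCND1 made up 78.0%, 90.2% and 78.5% of the summed level in the controls and 67.9%, 67.7% and 67.4% in shPUS1 cells. As a ratio, CCND1 to CCND3 was 3.54, 9.18 and 3.65 in shControl and 2.11, 2.10 and 2.07 in shPUS1 libraries. The 3 shPUS1 ratios lay close together and below every control. The ratios between relatives were picked after the values were seen and carry no test.

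CCNE1 (ENSG00000105173), the gene of cyclin E1, is listed on chromosome 19 from 29811991 to 29824312, plus strand. It was low, at 2.98, 4.35 and 2.68 FPKM in the controls and 4.50, 4.30 and 5.13 FPKM in shPUS1 cells, from 94 to 216 estimated counts a library. The groups overlapped through shControl replicate 2, which was 1.62 times the other 2 controls. CCNE1 had a log2 fold change of 0.49 (SE 0.24, adjusted p = 0.246) with all libraries and 0.75 (SE 0.15, adjusted p = 0.0138) without it.

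CCNE2 (ENSG00000175305), the gene of cyclin E2, is listed on chromosome 8 from 94879770 to 94896678, minus strand, and was the lowest of the 10 in shPUS1 cells. Its values were 1.80, 9.83 and 1.77 FPKM in shControl and 0.92, 0.81 and 1.21 FPKM in shPUS1 libraries, from 65 to 848 estimated counts. All shPUS1 libraries lay below all controls, and the control mean of 4.47 ± 4.64 FPKM (SD, n = 3) rested on replicate 2, which was 5.79 times the other 2. The log2 fold change of -2.20 (SE 0.69, adjusted p = 0.11) became -0.83 (SE 0.21, adjusted p = 0.0286) without that library.

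Beside shControl replicates 1 and 3, shPUS1 cells thus had CCNE1 at higher and CCNE2 at lower values. CCNE1 to CCNE2 was 1.66, 0.443 and 1.51 in shControl and 4.89, 5.31 and 4.24 in shPUS1 libraries, with no overlap. Their summed level was 4.78, 14.2 and 4.45 FPKM against 5.42, 5.11 and 6.34 FPKM. The sum had a log2 difference of -0.26 (exact permutation p = 1.0, adjusted 1.0), which turned to 0.28 without shControl replicate 2.

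**Figure D2:**
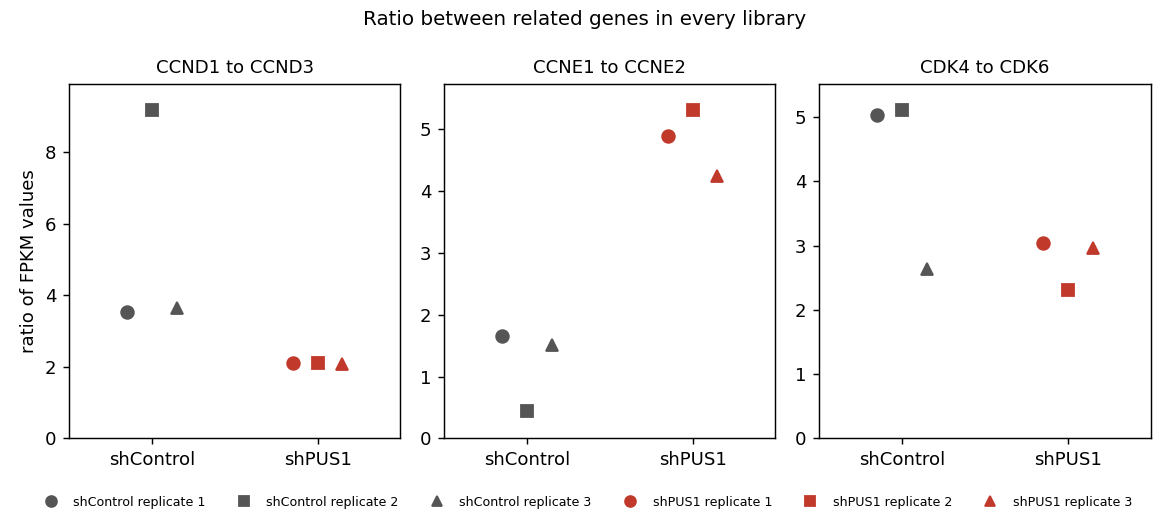
Ratio of FPKM between relatives (y axis, no unit) in each of the 3 shControl (grey) and 3 shPUS1 (red) libraries, with symbols for replicate number. CCND1 to CCND3 sits between 2.07 and 2.11 in shPUS1 cells and at 3.54 or more in the controls, CCNE1 to CCNE2 sits at 4.24 or more against 1.66 or less, and the groups overlap for CDK4 to CDK6 (2.31 to 3.04 against 2.63 to 5.11).

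CDKN1A (ENSG00000124762), a p53 target that holds cells in G1, is listed on chromosome 6 from 36676460 to 36687337, plus strand. It stood at 45.0, 19.9 and 46.5 FPKM in the controls and at 39.1, 41.3 and 40.0 FPKM in shPUS1 cells. The shPUS1 libraries lay between shControl replicate 2, at 0.458 times the other controls, and those other controls. The log2 fold change was 0.15 (SE 0.27, adjusted p = 0.762) and changed sign to -0.15 (SE 0.09, adjusted p = 0.251) without shControl replicate 2, when the groups no longer overlapped. Neither value passed the threshold.

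CDKN1B (ENSG00000111276), whose protein is removed by SKP2 as cells enter S phase, is listed on chromosome 12 from 12685498 to 12722369, plus strand. It was at 5.87, 4.12 and 5.37 FPKM in shControl and 4.34, 5.23 and 5.36 FPKM in shPUS1 libraries, and the groups overlapped. CDKN1B had a log2 fold change of -0.01 (SE 0.16, adjusted p = 0.962), and -0.14 (SE 0.12, adjusted p = 0.447) without shControl replicate 2. The table gives the gene 9255 exonic bases where GENCODE release 29 gives 2811, so its FPKM is low beside those of the other genes. This does not touch its fold change.

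CDKN1C (ENSG00000129757), an imprinted gene, is listed on chromosome 11 from 2883213 to 2885775, minus strand. Its values were 6.85, 1.07 and 7.67 FPKM in the controls and 7.34, 7.90 and 6.22 FPKM in shPUS1 cells. The shControl replicate 2 library held 52 estimated counts where the others held 255 to 359, which put it at 0.155 times the other 2 controls. CDKN1C had a log2 fold change of 0.51 (SE 0.56, adjusted p = 0.591) with it and 0.02 (SE 0.13, adjusted p = 0.927) without it.

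Summed, the CIP/KIP inhibitors gave 57.8, 25.1 and 59.5 FPKM in shControl and 50.7, 54.4 and 51.6 FPKM in shPUS1 libraries. The log2 difference was 0.24 (exact permutation p = 1.0, adjusted 1.0) and -0.17 without shControl replicate 2. CDKN1A made up most of the sum in every library, between 75.9% and 79.3%, or 57.2% to 64.3% with the GENCODE lengths. The summed D and E cyclins stood to the summed inhibitors at 1.71, 7.93 and 1.73 in the controls and at 2.01, 1.85 and 1.90 in shPUS1 cells. With all libraries this ratio had a log2 difference of -0.58 (exact permutation p = 1.0, adjusted 1.0), and 0.16 without shControl replicate 2, the library in which cyclins were high and inhibitors low together.

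MYC (ENSG00000136997) is listed on chromosome 8 from 127735434 to 127742951, plus strand, with 4584 exonic bases in the table against 3001 in GENCODE release 29. It stood at 71.2, 29.4 and 71.1 FPKM in the controls and at 49.9, 39.1 and 49.4 FPKM in shPUS1 cells. The shPUS1 libraries all lay below shControl replicates 1 and 3 and above replicate 2, which was 0.436 times the other 2. The log2 fold change was -0.28 (SE 0.30, adjusted p = 0.585) with all libraries and -0.58 (SE 0.12, adjusted p = 0.015) without shControl replicate 2, where the mean was 46.1 ± 6.07 FPKM (SD, n = 3) against 71.2 FPKM.

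**Figure D3:**
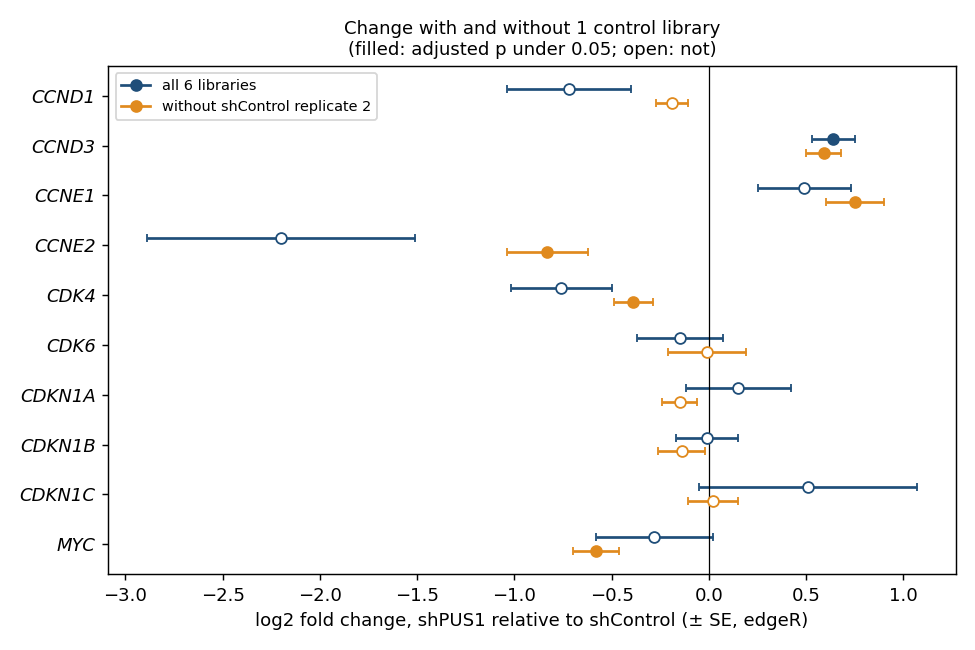
Log2 fold change of shPUS1 over shControl (x axis) from edgeR for each of the 10 genes, with bars of 1 SE, with all 6 libraries (blue) and without shControl replicate 2 (orange), filled where the adjusted p is under 0.05. CCND3 keeps its place (0.64 and 0.59), CCNE2 moves from -2.20 to -0.83, and CDKN1A moves across 0.

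Several members were among the genes in which shControl replicate 2 stood apart. CCND1 and CCNE2 lay more than 1 on the log2 scale above the mean of the other 2 controls (log2 differences of 1.22 and 2.53), as did 5.15% of tested genes. CDKN1A, CDKN1C and MYC lay more than 1 below, as did 11.4%. The largest of these differences was -2.69, for CDKN1C. The same library was above both other controls for all 17 E2F target genes of S phase and for 16 of 19 MYC target genes listed below, against 6249 of 14748 tested genes. The fold change of each member is given with and without this library, and why it stood apart was not tested.

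Ordered by mean FPKM with the table's exonic lengths, shPUS1 cells had CCND1 (64.0 FPKM) above MYC (46.1), CDKN1A (40.1), CCND3 (30.5), CDK4 (22.4), CDK6 (8.21), CDKN1C (7.15), CDKN1B (4.98), CCNE1 (4.64) and CCNE2 (0.98 FPKM). Neighbours whose ranges over libraries overlapped were MYC with CDKN1A, CDK6 with CDKN1C, and CDKN1B with CCNE1. In the controls the order of means was CCND1, MYC, CDK4, CDKN1A, CCND3, CDK6, CDKN1C, CDKN1B, CCNE2 and CCNE1, and the ranges of CCND1 and MYC and of CCND3 and CDK6 were the only neighbouring ranges that did not overlap. With shControl replicates 1 and 3 alone, CDK4 (30.2 FPKM) stood above CCND3 (20.9 FPKM), whereas in shPUS1 cells CCND3 stood above CDK4, in each case with no overlap. The order depends on the lengths: with those of GENCODE release 29, a choice made after the values were seen, MYC (70.5 FPKM) came above CCND1 (63.1 FPKM) in shPUS1 cells and in shControl replicates 1 and 3 (109 and 74.2 FPKM), and CDKN1B (16.4 FPKM in shPUS1 cells) came above CDK6 and CDKN1C in both groups. Only the lengths were exchanged, and the reads were not counted again. Any reads counted outside the shorter lengths of MYC and CDKN1B remain in these values and would raise them.

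The genes around these members were read from lists chosen with earlier results of these data known. Of the other cyclins and kinases of G1, 6 of 7 were tested and none was called by edgeR, DESeq2 or limma, with 0 at an unadjusted p under 0.05 (median log2 fold change -0.03, also -0.03 over all tested genes), and CCND2, the third D cyclin, was too low to test. In the same list CDC25A, a phosphatase that activates CDK2, was at 4.31, 12.9 and 4.25 FPKM in shControl and 4.72, 4.78 and 4.99 FPKM in shPUS1 libraries, a log2 fold change of -0.57 (adjusted p = 0.429) that turned to 0.22 (adjusted p = 0.188) without shControl replicate 2. CDC37, a chaperone partner that loads kinases such as CDK4, had 0.13 (adjusted p = 0.533), or 0.20 (adjusted p = 0.201) without it, and CCNH had 0.17 (adjusted p = 0.456), or 0.14 (adjusted p = 0.473). Of the INK4 inhibitors, which bind CDK4 and CDK6, CDKN2A and CDKN2B were too low to test, with at most 6 and 3 counts. CDKN2C (p18) stood at 14.9, 22.4 and 11.5 FPKM in shControl and 8.92, 8.82 and 9.47 FPKM in shPUS1 libraries, a log2 fold change of -0.83 (adjusted p = 0.101) and of -0.50 without shControl replicate 2 (adjusted p = 0.03). CDKN2D had 0.12 (adjusted p = 0.725), which turned to -0.08 (adjusted p = 0.6) without that library. Neither was called by edgeR with all libraries, CDKN2C had an unadjusted p under 0.05, and DESeq2 called 1 of the 2.

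Among 13 pocket proteins and E2F factors, 1 was higher and 0 were lower. That gene was E2F7, a repressor among the E2F factors, at 24.2, 27.2 and 29.6 FPKM in the controls and 45.2, 49.2 and 43.1 FPKM in shPUS1 cells, which rose by 0.78 on the log2 scale (SE 0.12, adjusted p = 0.0336), and by 0.81 (adjusted p = 0.00342) without shControl replicate 2. Its closest relative E2F8 had -1.19 (adjusted p = 0.134), or -0.49 without shControl replicate 2 (adjusted p = 0.0464), and the pocket protein RBL1 had -1.04 (adjusted p = 0.179), or -0.28 (adjusted p = 0.119). Without that library 3 genes of the list were called higher and 2 lower. Over all tested genes 9.8% were called higher and 8.79% lower without it. The same shares stand behind the counts called without that library in the lists below.

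All 17 tested E2F target genes of S phase had negative log2 fold changes (median -0.78, against -0.03 over all tested genes), and the median was -0.30 without shControl replicate 2, where 7 were called lower and 1 higher. With all libraries edgeR called 1 of them and DESeq2 7. The gene edgeR called was CCNA2, the gene of cyclin A2, which drives S phase with CDK2, at 53.04, 68.2 and 48.2 FPKM in shControl and 24.3, 24.3 and 27.1 FPKM in shPUS1 libraries, and it fell by 1.15 on the log2 scale (SE 0.17, adjusted p = 0.0318), and by 0.96 (adjusted p = 0.00113) without shControl replicate 2. CDT1, which licenses replication origins, had -0.83 (adjusted p = 0.0505), and -0.68 (adjusted p = 0.00663) without shControl replicate 2.

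Of 19 MYC target genes, 17 had negative and 2 positive log2 fold changes (median -0.67). None was called by edgeR, with 12 at an unadjusted p under 0.05 (3758 of all 14748 tested genes), and DESeq2 called 7 (1910 of all tested genes). These same shares over all genes stand behind the unadjusted and DESeq2 counts of the other lists with all libraries. Without shControl replicate 2 the median was -0.29 and 7 were called lower. FBL, the methyltransferase of ribosomal RNA, was at 139, 119 and 95.3 FPKM in the controls and 66.7, 61.0 and 72.4 FPKM in shPUS1 cells, a log2 fold change of -0.80 (adjusted p = 0.0513) and of -0.77 without that library (adjusted p = 0.0144). LDHA had -0.48 with all libraries and without shControl replicate 2 (adjusted p = 0.0663 and 0.0144), and HSPD1 had -0.86 (adjusted p = 0.0782), or -0.59 (adjusted p = 0.0208) without it. Among 9 MYC partners and antagonists edgeR called none with all libraries (3 at an unadjusted p under 0.05, and 2 called by DESeq2), and 1 was higher and 2 were lower without shControl replicate 2. MXD1, which competes with MYC for MAX, was at 4.30, 1.83 and 4.83 FPKM in shControl and 7.86, 8.79 and 7.69 FPKM in shPUS1 libraries, a log2 fold change of 1.19 (adjusted p = 0.0742) and of 0.87 without shControl replicate 2 (adjusted p = 0.00224). MXD3 of the same family had -0.70 (adjusted p = 0.0653), or -0.68 (adjusted p = 0.0148), and MAX had 0.29 (adjusted p = 0.192), or 0.24 (adjusted p = 0.16).

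Of 9 ubiquitin ligase parts that act on G1 proteins edgeR called none with all libraries (median -0.10, 2 at an unadjusted p under 0.05, 2 called by DESeq2), and 1 was higher and 1 lower without shControl replicate 2. SKP2, the F-box protein that marks p27 for removal, was at 2.84, 5.97 and 3.01 FPKM in shControl and 1.87, 1.90 and 1.72 FPKM in shPUS1 libraries, a log2 fold change of -1.10 (adjusted p = 0.0839) and of -0.63 without shControl replicate 2 (adjusted p = 0.00463). FBXW7, which marks cyclin E and MYC, had 0.44 (adjusted p = 0.111), or 0.38 without it (adjusted p = 0.0417), and CUL1 had -0.46 (adjusted p = 0.227), or -0.16 (adjusted p = 0.236). Of 18 p53 target genes other than CDKN1A edgeR called none (median 0.05, 5 at an unadjusted p under 0.05, 4 called by DESeq2), and without that library 1 was higher and 6 were lower (median -0.02). MDA-MB-231 carries mutant p53. FAS, a death receptor, had -1.11 (adjusted p = 0.0519), or -1.18 (adjusted p = 0.00794) without shControl replicate 2. RRM2B, a subunit of ribonucleotide reductase, had -0.45 (adjusted p = 0.0812), or -0.44 (adjusted p = 0.0177), and XPC, which senses DNA damage, had -0.60 (adjusted p = 0.0816), or -0.64 (adjusted p = 0.017). Of 10 FOXO and TGF-beta regulators of CDKN1A and CDKN1B, KLF4, a factor that activates CDKN1A, was at 12.98, 9.14 and 12.7 FPKM in shControl and 19.2, 20.3 and 17.9 FPKM in shPUS1 libraries and rose by 0.75 on the log2 scale (SE 0.15, adjusted p = 0.0472), or by 0.62 (adjusted p = 0.0056) without that library. FOXO1 had 0.31 (adjusted p = 0.454), or 0.06 (adjusted p = 0.756), and FOXO3 had 0.25 (adjusted p = 0.47), or 0.04 (adjusted p = 0.822).

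**Figure D4:**
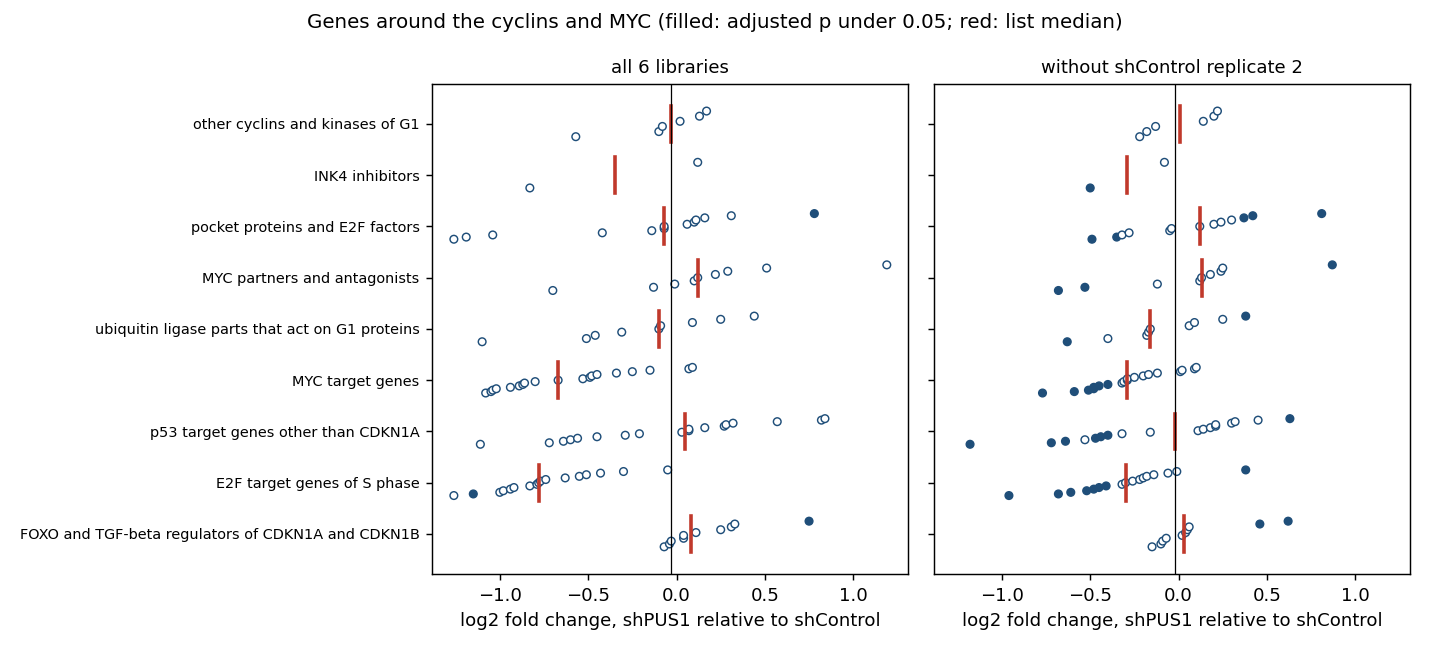
Log2 fold change of shPUS1 over shControl from edgeR (x axis) for every tested gene of the 9 lists around the members, 1 point per gene (filled where the adjusted p is under 0.05), with all 6 libraries (left) and without shControl replicate 2 (right); red bars are list medians and the black line is the median of all tested genes. All 17 E2F target genes of S phase and 17 of 19 MYC target genes lie below 0 with all libraries, and their medians move from -0.78 to -0.30 and from -0.67 to -0.29 without that library.

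No stretch of 100 bases in the transcripts of the 10 genes was shared with another gene in GENCODE release 29. The exons of CCND1, CCND3, CCNE2, CDK4, CDK6 and CDKN1A overlap those of a gene on the opposite strand (LTO1, AL513008.1, INTS8 and AC087752.4, TSPAN31, AC002454.1 and DINOL). The exons of PUS1 overlap those of AC131009.1, also on the opposite strand. Whether counting used strand is not given in the sources used here. If it did not, reads from the overlapping parts of these exons could not be told apart from reads of the other gene. How much of each gene overlaps was not measured. The values of those 6 members, CCND3 included, and of PUS1 are uncertain to that extent. All 10 are protein-coding genes, each placed on the chromosome and overlapping the span that the annotation gives it.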

How the data were processed

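Poly(A) RNA of 3 shControl and 3 shPUS1 libraries was sequenced. Per the labels, the authors' processing used HISAT2 and HTSeq 0.6.1, and they deposited 1 table of estimated counts, of which 29.8% to 31.8% of the values above 0 are not whole, and FPKM per gene. The genome build and the strand setting are not given in the sources used here. Counts were rounded, filtered with filterByExpr (14748 genes, at least 99.85% of counts), TMM-scaled and tested with edgeR 4.0.16 (quasi-likelihood test, Benjamini-Hochberg, threshold 0.05). SE is the log2 fold change divided by the root of F. Sums of FPKM were tested by exact permutation. DESeq2 1.42.0, limma 3.58.1 and the fits of the closing section were alternatives. The code of the fit was tested on simulated counts with the same spread for all genes and no outlying library. That test cannot show how the fit performs where a library stands apart, as here. The 10 members and all lists were chosen with earlier results of these data known. Named from each list are the 3 genes with the smallest p, called genes, and family members too low to test. One gene that this rule names is not reported here. Intervals from counting were not used, since the spread between libraries was larger.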

Additional observations from a re-analysis of the deposited data

How the results depend on the processing

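The number of genes with an adjusted p under 0.05 was 380 in the fit as reported. It was 1284 without the filter on low counts, 1910 by DESeq2, 250 by limma on log2(FPKM + 0.1), 3090 by limma voom with sample weights, and 0 to 2813 when 1 library was left out. Leaving out shControl replicate 1, 2 or 3 gave 11, 2813 and 474 genes. Leaving out shPUS1 replicate 1, 2 or 3 gave 11, 6 and 0. The 0 was edgeR's count when shPUS1 replicate 3 was dropped, where 2581 genes had an unadjusted p under 0.05. Of the 10 members, 1 was called as reported, 3 (CCND3, CCNE2 and CDK4) without the filter and 3 by DESeq2, 5 by voom (those and CCNE1 and MYC), and 0 to 5 with 1 library left out, and members whose groups did not overlap numbered 4 to 7. CCND3 was no longer called without shControl replicate 1 (adjusted p = 0.0905) or without shPUS1 replicate 1, 2 or 3 (adjusted p = 0.231, 0.244 and 0.189, edgeR). PUS1 was not called by limma on log2(FPKM + 1) or log2(FPKM + 0.1) (adjusted p = 0.0544 and 0.0514), without shControl replicate 1 (0.0905) or without shPUS1 replicate 1, 2 or 3 (0.208, 0.253 and 0.192, edgeR). Voom turned the log2 fold changes of CDK6 to 0.08 and of CDKN1A to -0.09. With 1 library left out, that of CDKN1A ran from -0.15 to 0.31 and that of CDKN1B from -0.14 to 0.09, and the log2 differences of the sums from -0.56 to 0.28 for E cyclins, from -0.17 to 0.46 for CIP/KIP inhibitors and from -0.95 to 0.16 for the cyclin to inhibitor ratio. Leaving out a control changes the share of shControl replicate 2 in the control mean by construction, and leaving out a shPUS1 library does not. Voom gave shControl replicate 2 a weight of 0.101, estimated from the data, against 0.715 to 4.08 for the others. The cause of the shifts between these settings was not tested. Among the alternative values for the members and PUS1, 125 kept direction and side of the threshold, 12 newly passed it, 12 no longer passed it and 5 changed sign.

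The groups share replicate numbers, but the deviations of same-numbered libraries did not go together (correlations of -0.0529, -0.0256 and -0.19). The main fit therefore had no replicate block. With so few libraries, these correlations cannot exclude that same-numbered cultures were handled together. With the replicate block 18 genes and 0 members were called (2815 genes at an unadjusted p under 0.05), and CCND3 and PUS1 had adjusted p of 0.145 and 0.0969. With 3 libraries a group, values from low counts such as those of CCNE1 and CCNE2 are the least precise. The exonic lengths of GENCODE release 29, tried after the values were seen, left the direction of all 5 sums and ratios as reported.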
